A study of Mus musculus with 8 samples.

Results

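The genes described here are the 7 cyclin-dependent kinase (CDK) inhibitor genes of the mouse, Cdkn1a, Cdkn1b, Cdkn1c, Cdkn2a, Cdkn2b, Cdkn2c and Cdkn2d, and the 3 D-type cyclin genes, Ccnd1, Ccnd2 and Ccnd3, each with the accessible chromatin around it in haematopoietic stem cells (HSC). Overlapping peaks of 8 deposited ATAC-seq peak lists were merged into regions, and a region was kept when its midpoint lay inside the mm10 span of a member gene or within 50 kb of it. This left 122 regions of 90736 in the whole series. Cdkn2a and Cdkn2b are neighbours on chromosome 4 and share 7 of the 122 regions, which therefore enter both of their accounts.

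D-type cyclins switch on the kinases CDK4 and CDK6, which phosphorylate the retinoblastoma protein and so release E2F factors that start DNA replication. Inhibitors of the INK4 family bind these kinases directly and keep the cyclins away, whereas inhibitors of the Cip/Kip family bind whole cyclin and CDK complexes. Most HSC rest outside the cell cycle, and the Cip/Kip inhibitor p57, the product of Cdkn1c, is known for holding them there.

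The study addresses the transcription factor Bcl11a, both its role inside HSC and the effect that HSC overexpressing it have on wild-type neighbours. All 8 libraries came from bone marrow HSC of mice that carry Vav1-cre, a recombinase driven by Vav1 in blood cells, together with an iMOS Bcl11a construct. The groups were MUT T1 (iMOS-Bcl11a-MUT genotype, T1 population), MUT T2, WT T1 (iMOS-Bcl11a-WT genotype) and WT T2, with 2 libraries in each. The mice were 2 to 3 months old (the design text says 3), 5000 nuclei went into each library, and the sources used here do not give the sort that separates T1 from T2. Nothing in the labels says that the libraries of a group came from separate animals, so p-values measure only the spread between these libraries, which may be technical.

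Each list held 62232 to 74785 peaks. The genome background that the peak caller used, a measure of depth recovered from the deposited values, ranged from 1.89 to 3.38 fragments per position, and 3 libraries were shallow: MUT T1 replicate 2 (2.03) and the WT T2 pair (2.45 and 1.89). The labelled cell type was checked by the regions that reach within 1 kb of the ends of marker genes: all 8 libraries had such a region at 10 of 10 stem cell genes (among them Hlf, Mecom and Procr) and 3 of 3 megakaryocyte genes. The same held for 1 of 4 B cell, 0 of 4 T cell, 0 of 4 neutrophil and monocyte, 2 of 4 erythroid and 3 of 4 stromal and endothelial genes. No library had such a region at Rag1, Cd3e, Elane, S100a8, Gata1 or Cdh5. In such pooled cells, fewer cells with an open site and less opening per cell cannot be told apart.

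Most of the accessible chromatin at these genes was shared by all groups. Of the 122 regions, 70 (57.4%) were called in all 8 libraries, against 54.6% of all regions, and 10 (8.20%) in a single library, against 11.6%. The other 42 were called in 2 to 7 libraries. By position, 29 regions lay inside a member gene, 33 inside another gene, 34 between genes with a member nearest, and 26 between genes with another gene nearest. Distances of regions from genes are given from the midpoint. Exons and introns were not analysed here.

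The loci differed widely in how much accessible chromatin they hold. Ccnd3, whose span of 94639 bp is the longest of the 10, had 25 regions, more than 98.1% of 21631 protein-coding genes, and 15 of them were called in all 8 libraries. Cdkn1a and Cdkn1c had 18 regions each, of which 10 and 8 were called in all 8. Ccnd1 had 15 (10 in all 8), Cdkn2d 13 (9 in all 8) and Ccnd2 11 (7 in all 8). The locus of Cdkn1b held 9 regions with 4 in all 8 libraries, that of Cdkn2b 9 with 3, and that of Cdkn2a 7 with 2. Cdkn2c had the fewest, 4, and each of them was called in every library, so no library differed from another in its calls there. The median over the members was 12 regions and 7.5 called in all 8, against 8 and 5 over all protein-coding genes. A longer gene span collects more regions by construction.

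**Figure D1:**
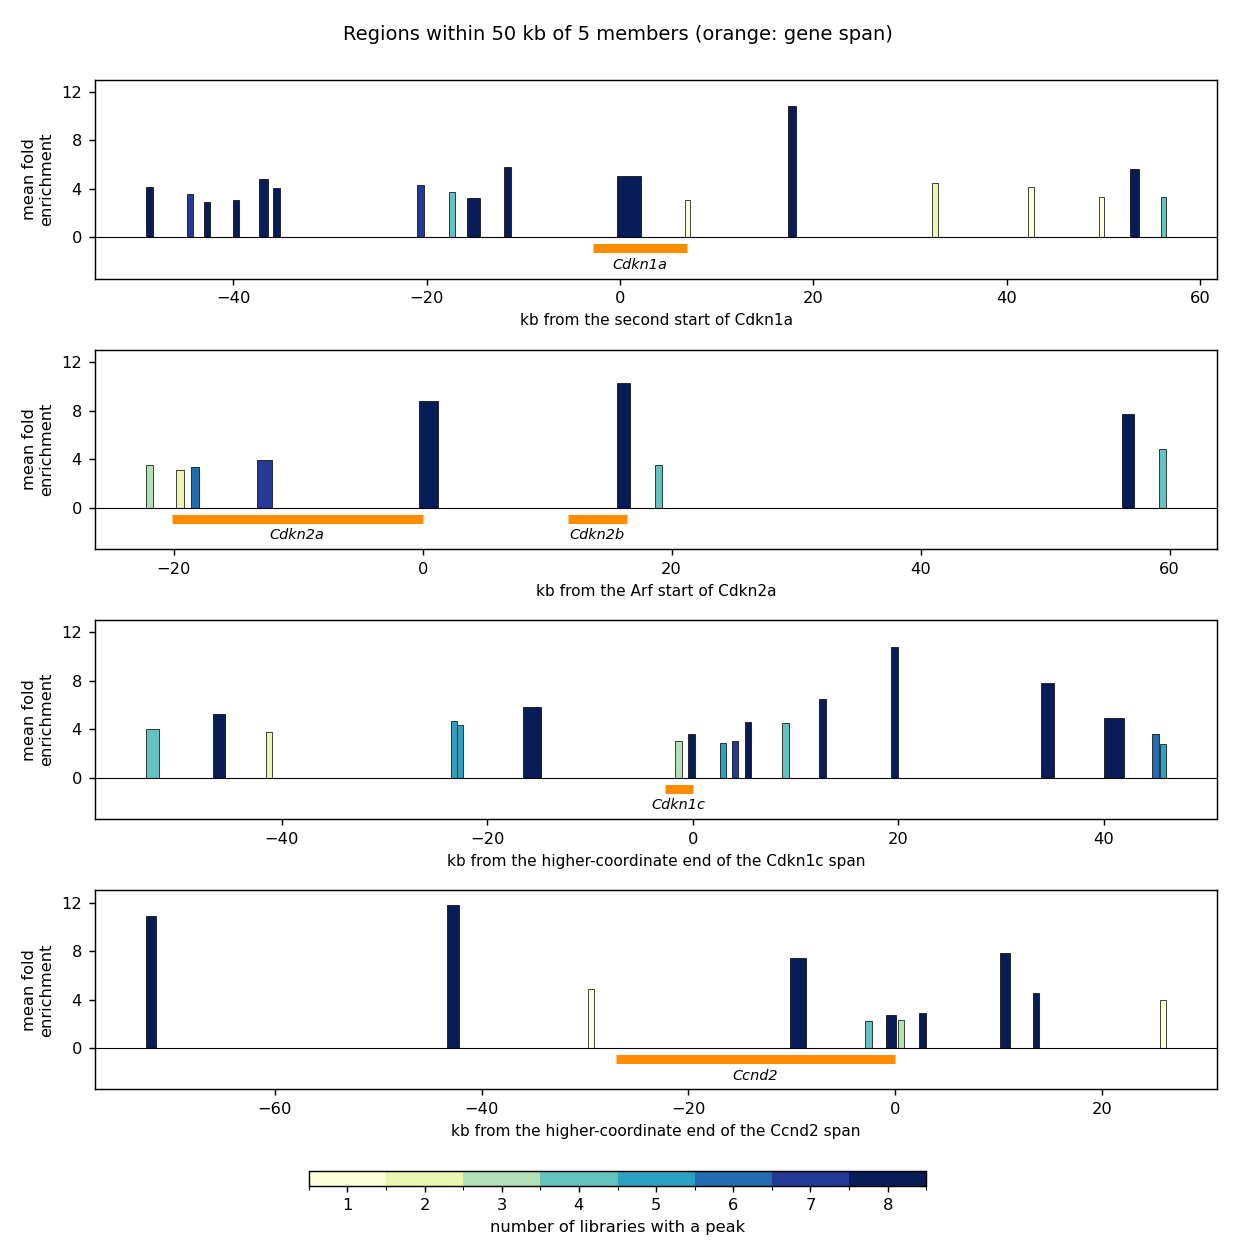
Regions within 50 kb of Cdkn1a, of Cdkn2a and Cdkn2b, of Cdkn1c and of Ccnd2, drawn as bars by distance in kb from a start or a span end, with the mean fold enrichment over the libraries that called them as height, the number of libraries with a peak as colour (narrow regions are widened to 0.6 kb to be visible), and the gene spans in orange. The tallest bars of Cdkn1a, Cdkn1c and Ccnd2 stand away from the genes, whereas those of Cdkn2a and Cdkn2b stand at their starts.

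A pair of measures of strength was read at each region. The fold enrichment is the authors' value, the height of the summit over its local background. The summit coverage is the recovered height of the summit over the genome background of the same library, so that it does not shrink where the surroundings are open as well. Over the regions called in all 8 libraries, the median fold enrichment was 5.92 at the members and 7.71 over the genome, while the median summit coverage was 28.7 at the members and 20.3 over the genome. The members were thus lower on the first scale and higher on the second. Their fold enrichment ran from 2.04 to 13.6 over all regions and libraries.

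The Cip/Kip genes come first. Cdkn1a encodes p21, which arrests the cycle downstream of p53. Its first start, at position 29090979 of chromosome 17, had no region within 1 kb in any library, and the nearest region began 2504 bp away. Its second start, at 29093769, lay inside a region of 2419 bp called in every library (29093483 to 29095901). The fold enrichment there was 4.33 and 5.17 in the MUT T1 pair, 4.72 and 4.57 in the MUT T2 pair, 4.81 and 5.05 in the WT T1 pair, and 5.50 and 5.97 in the WT T2 pair. Both WT T2 libraries stood above all others, the MUT T1 pair spanned the MUT T2 and WT T1 values, and both MUT T2 values lay below the WT T1 pair. The summit lay 1596 to 1679 bp downstream of the second start, inside the gene, with a summit coverage of 52.1 ± 10.5 (SD, n = 8), higher than at least 93.0% of the peaks in each list. The promoter windows of both starts, from 250 bases before to 50 after each, are shown because one lies outside and the other wholly inside accessible chromatin. They were taken from RefSeq (GRCm38.p6, the same build as mm10), chr17:29090729-29091028 and chr17:29093519-29093818, plus strand, 5′ to 3′, with motif matches in capitals.
Cdkn1a start 1: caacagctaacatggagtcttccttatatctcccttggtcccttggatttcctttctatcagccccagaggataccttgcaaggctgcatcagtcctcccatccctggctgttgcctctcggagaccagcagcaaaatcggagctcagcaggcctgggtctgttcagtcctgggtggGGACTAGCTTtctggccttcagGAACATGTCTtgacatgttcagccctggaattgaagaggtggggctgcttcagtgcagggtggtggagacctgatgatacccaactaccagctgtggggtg
Cdkn1a start 2: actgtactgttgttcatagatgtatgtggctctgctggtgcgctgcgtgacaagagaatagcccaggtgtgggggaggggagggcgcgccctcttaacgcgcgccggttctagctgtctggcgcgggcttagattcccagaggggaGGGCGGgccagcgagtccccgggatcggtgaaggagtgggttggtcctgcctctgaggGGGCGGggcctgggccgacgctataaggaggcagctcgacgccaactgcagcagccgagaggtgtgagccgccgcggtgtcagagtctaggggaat
The capitals in the first window mark a pair of p53 half-sites at positions −73 and −51 from the start. At least 1 such half-site was found in 8.36% of all 32851 promoter windows, and the share with a pair was not counted. The CpG dinucleotides of the first window were rare, at 0.0892 of the number that its base composition predicts, against a median of 0.384 over all windows. The second window held 2 GC boxes (GGGCGG, at −104 and −46; 35.7% of all windows held one) and a CpG ratio of 0.786.

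Cdkn1b encodes p27, an inhibitor that accumulates in resting cells. A region of 1660 bp over its start on chromosome 6 (134919569 to 134921228) was called in every library, with summits from 85 bp upstream to 45 bp downstream of the start in the 8 lists. The fold enrichment was 5.48 and 5.71 in the MUT T1 pair, 6.03 and 5.43 in the MUT T2 pair, 5.02 and 4.91 in the WT T1 pair, and 6.24 and 6.29 in the WT T2 pair. The WT T1 pair was the lowest and the WT T2 pair the highest, with both MUT groups between them. The summit coverage of 56.1 ± 6.83 (SD, n = 8) lay above at least 94.8% of the peaks in each list. The window of this start held 3 CCAAT boxes (CCAAT; 37.4% of all windows held one) and 1 GC box.

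Cdkn1c lies in an imprinted cluster with Kcnq1 and is the inhibitor best known from resting HSC. Its higher-coordinate span end on chromosome 7 (143461059) carried a region called in every library, at 2.80 and 4.50 in the MUT T1 pair, 3.16 and 3.65 in the MUT T2 pair, 3.24 and 3.52 in the WT T1 pair, and 4.12 and 4.10 in the WT T2 pair. The MUT T1 pair held both the lowest and the highest value and so spanned the other groups. The summit coverage was 22.6 ± 5.46 (SD, n = 8). A second region inside the gene (143459317 to 143459979) had peaks in the MUT T1 pair (2.81 and 3.34) and in WT T1 replicate 1 (2.85). WT T1 replicate 2 had no peak there, nor had any T2 library of either genotype. Where called, it was among the lowest 2.57% of the list by fold enrichment.

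The INK4 genes follow. Cdkn2a has one start for the transcript of Arf, which stabilises p53, and another for p16, an inhibitor of CDK4 and CDK6. Cdkn2b encodes p15, a further inhibitor of the same kinases that TGF-beta signalling induces. The Arf start (chromosome 4, 89294619) lay in a region called in every library, at 7.66 and 8.49 in the MUT T1 pair, 9.86 and 9.13 in the MUT T2 pair, 9.22 and 8.49 in the WT T1 pair, and 8.78 and 8.36 in the WT T2 pair. The Cdkn2b start (89311032) lay in the strongest region of the pair, at 9.20 and 11.2 in the MUT T1 pair, 11.5 and 8.95 in the MUT T2 pair, 9.86 and 8.82 in the WT T1 pair, and 11.9 and 11.0 in the WT T2 pair. Over all 8 libraries MUT and WT values overlapped at both starts. Within T2, both MUT libraries stood above both WT libraries at the Arf start, by 0.27 ± 0.12 (log2 of centred values, SE; unadjusted p = 0.0464 and Benjamini-Hochberg adjusted p = 0.651 in limma), and did not pass.

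The p16 start (89282192) was the weakest of the 3 starts. A region there was called in 7 libraries, with 3.29 and 5.50 in the MUT T1 pair, 2.81 and 3.92 in the MUT T2 pair, 3.40 and 4.30 in the WT T1 pair and 4.25 in WT T2 replicate 1, while WT T2 replicate 2, the shallowest library, had no peak. The summit coverage was 8.31 ± 1.76 (SD, n = 7) at the p16 start, 30.6 ± 3.54 (SD, n = 8) at the Arf start and 43.6 ± 7.32 (SD, n = 8) at the Cdkn2b start, and the 3 ranges did not overlap except between the last 2. At the p16 start the local background was 1.65 to 2.05 times the genome background, the lowest at any start or end of a member. The 3 windows are shown because one locus thus held a strong, an intermediate and a weak start. They are chr4:89294570-89294869 (Arf), chr4:89282143-89282442 (p16) and chr4:89310983-89311282 (Cdkn2b), minus strand, GRCm38.p6, printed 5′ to 3′ with motif matches in capitals. Each lies wholly inside its region. The summits lay at −443 to −261 bp from the Arf start (negative is upstream). They lay at −69 to 725 bp from the p16 start and 152 to 368 bp from the Cdkn2b start. All Arf and Cdkn2b summits were thus outside the printed windows, and those of p16 ran from inside the window to beyond it. Whether the printed motifs bear on these strengths was not tested.
Cdkn2a Arf start: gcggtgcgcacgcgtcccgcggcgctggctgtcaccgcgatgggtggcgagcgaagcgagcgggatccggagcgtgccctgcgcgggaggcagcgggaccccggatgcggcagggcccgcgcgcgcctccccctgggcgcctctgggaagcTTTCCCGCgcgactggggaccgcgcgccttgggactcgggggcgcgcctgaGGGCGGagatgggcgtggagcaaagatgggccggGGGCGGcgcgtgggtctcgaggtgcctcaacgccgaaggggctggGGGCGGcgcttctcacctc
Cdkn2a p16 start: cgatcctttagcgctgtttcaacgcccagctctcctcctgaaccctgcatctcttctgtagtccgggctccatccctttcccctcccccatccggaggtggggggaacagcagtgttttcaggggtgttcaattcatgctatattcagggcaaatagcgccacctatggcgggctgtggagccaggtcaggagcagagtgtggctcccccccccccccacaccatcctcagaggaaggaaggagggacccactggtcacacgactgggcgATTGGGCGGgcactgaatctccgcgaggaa
Cdkn2b start: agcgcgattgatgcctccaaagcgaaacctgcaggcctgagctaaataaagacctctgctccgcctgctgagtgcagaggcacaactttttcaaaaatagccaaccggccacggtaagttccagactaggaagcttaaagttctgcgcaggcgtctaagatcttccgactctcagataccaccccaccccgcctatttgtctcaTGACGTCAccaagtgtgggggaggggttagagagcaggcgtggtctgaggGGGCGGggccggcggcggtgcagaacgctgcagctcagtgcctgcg
The Arf window, with 77% G and C, held 3 GC boxes at −48, −14 and 31 and the E2F motif TTTCCCGC at −99, which 1.07% of all windows held. The p16 window held 1 GC box overlapping 1 CCAAT box and had a lower G and C content of 60.3% and a CpG ratio of 0.442, against 1.04 in the Arf window. The Cdkn2b window held a cyclic AMP response element (TGACGTCA) at −46, found in 1.79% of all windows, and a GC box at 4.

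Cdkn2c encodes p18 and Cdkn2d the INK4 protein p19, which are further INK4 inhibitors of CDK4 and CDK6. One region of 2397 bp on chromosome 4 covered both starts of Cdkn2c, with summits less than 250 bp upstream of the first. Its fold enrichment was 6.17 and 7.12 in the MUT T1 pair, 6.19 and 6.91 in the MUT T2 pair, 5.50 and 5.87 in the WT T1 pair, and 7.88 and 8.25 in the WT T2 pair. The WT T1 pair was again lowest and the WT T2 pair highest. The start of Cdkn2d (chromosome 9, 21291209) had 4.19 and 4.08 in the MUT T1 pair, 3.79 and 3.58 in the MUT T2 pair, 3.45 and 3.51 in the WT T1 pair, and 4.24 and 4.13 in the WT T2 pair, a narrow range. Summit coverage ran from 42.0 to 70.7 at Cdkn2c and from 44.1 to 68.1 at Cdkn2d, so the ranges overlapped, although the fold enrichment of Cdkn2d was the lower one. The local background of Cdkn2d was 11.1 to 16.1 times the genome background, against 6.81 to 8.20 times at Cdkn2c.

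Among the D cyclins, whose genes respond to growth factor signals, the starts and span ends had low fold enrichment. At Ccnd1 (chromosome 7) the span end at 144929931 had no region within 1 kb, and the end at 144939831 had one called in every library, at 2.59 and 3.47 in the MUT T1 pair, 3.22 and 3.03 in the MUT T2 pair, 3.34 and 3.23 in the WT T1 pair, and 3.42 and 3.72 in the WT T2 pair. At Ccnd2 (chromosome 6) the end at 127125162 had none, and the end at 127152188 had a region at 2.54 and 2.78 in the MUT T1 pair, 2.61 and 2.55 in the MUT T2 pair, 2.53 and 2.88 in the WT T1 pair, and 2.81 and 3.24 in the WT T2 pair. At both genes the MUT T1 and WT T1 pairs overlapped, while both MUT T2 values lay below both WT T2 values. These values are not centred. On values centred on each library's median, MUT T2 minus WT T2 was −0.064 ± 0.13 at Ccnd1 and −0.097 ± 0.12 at Ccnd2 (log2, SE). Neither difference exceeded its SE, and neither passed in limma. This Ccnd2 region was among the lowest 2.33% of every list by fold enrichment and yet had a summit coverage of 41.7 ± 8.26 (SD, n = 8), above at least 84.7% of the peaks in each list. The local background there was 12.8 to 17.6 times the genome background, the highest at any start or end of a member.

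Ccnd3 has a start at each side of its long span on chromosome 17. The first (47505051) had a region in 6 libraries, at 2.12 in MUT T1 replicate 1, 2.22 and 2.47 in the MUT T2 pair, 2.25 and 2.17 in the WT T1 pair and 2.50 in WT T2 replicate 1. The 2 libraries without a call, MUT T1 replicate 2 and WT T2 replicate 2, were the shallowest. The second start (47593467) was called in every library, at 4.03 and 4.95 in the MUT T1 pair, 3.39 and 3.86 in the MUT T2 pair, 3.28 and 4.01 in the WT T1 pair, and 5.11 and 5.37 in the WT T2 pair. Of the 11 promoter windows available for 7 members, 10 had a G and C content above the median of all windows (52.7%), and 10 a CpG ratio above its median.

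**Figure D2:**
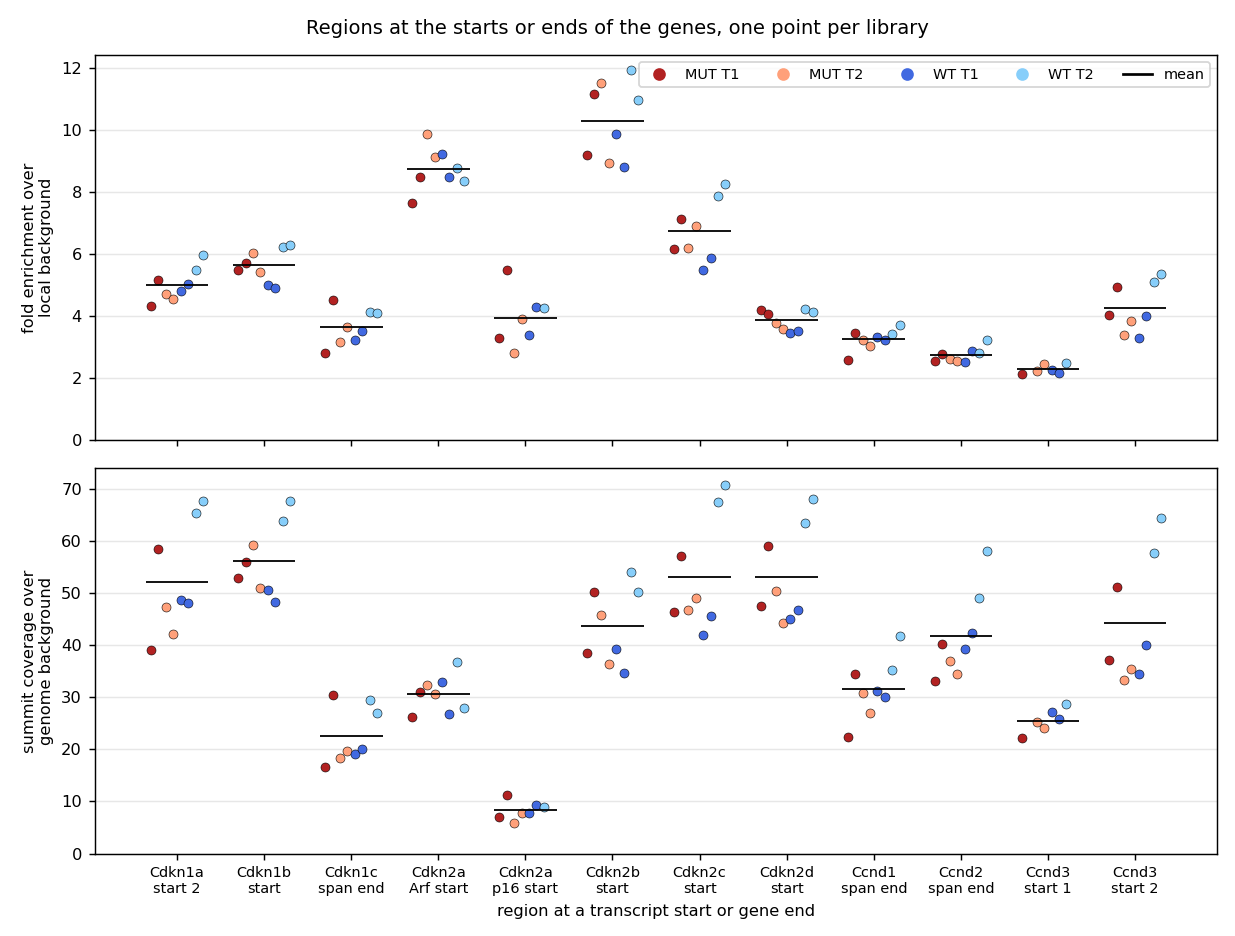
Fold enrichment over the local background (upper panel) and summit coverage over the genome background (lower panel) of the region at each start or span end, with 1 point per library, coloured MUT T1, MUT T2, WT T1 and WT T2 from left to right, and a line at the mean. Cdkn2b and the Arf start of Cdkn2a lead the upper panel at 10.3 and 8.75, whereas the lower panel puts Cdkn1b first at 56.1 and the p16 start last at 8.31, and both WT T2 points stand high at several genes.

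These values are as deposited and not centred. Over all 49577 regions called in all 8 libraries the median fold enrichment was 7.11 and 7.87 in the MUT T1 pair, 7.77 and 7.33 in the MUT T2 pair, 7.31 and 7.46 in the WT T1 pair, and 8.12 and 8.36 in the WT T2 pair, so it was highest in the 3 shallowest libraries. The WT T2 pair, which led at the starts of Cdkn1a, Cdkn1b, Cdkn2c and Ccnd3, was thus high over the genome as well, and the tests of fold enrichment further on use centred values. On centred values, WT T1 minus WT T2 was −0.058 ± 0.14 at Cdkn1a and −0.18 ± 0.14 at Cdkn1b (log2, SE). It was −0.35 ± 0.14 at Cdkn2c and −0.37 ± 0.15 at the second start of Ccnd3. None of these passed (lowest Benjamini-Hochberg adjusted p = 0.529 in limma).

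The strongest regions mostly lay away from the members' own starts. The region with the highest mean fold enrichment of each locus had a mean of 9.41 to 11.8, and all were called in every library. That of Ccnd2 was the highest, 15703 bp from its span and inside Tigar, a gene for a phosphatase of glycolytic metabolites (chromosome 6, 127108872 to 127110046). It had 10.4 and 12.6 in the MUT T1 pair, 11.5 and 11.8 in the MUT T2 pair, 10.7 and 10.8 in the WT T1 pair, and 13.5 and 13.2 in the WT T2 pair. That of Cdkn1a lay 10820 bp from the gene, near Rab44 (29111120 to 29111963, mean 10.8), and that of Cdkn1b 22172 bp away, near Gpr19, an orphan receptor gene (134897640 to 134898819, mean 10.1). That of Cdkn1c lay 19623 bp away inside Slc22a18, a transporter gene of the same imprinted cluster (143480339 to 143481024, mean 10.8). Replicates of 1 group could differ there as much as groups did, with 8.36 and 11.7 in the MUT T1 pair and 11.6 and 12.6 in the WT T2 pair.

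At Cdkn2c the strongest region lay 36908 bp away inside Faf1 (109703323 to 109704004, mean 10.4), with 13.6 and 8.29 in the WT T2 pair alone. It lay at Cdkn2d 22137 bp away near Ap1m2 (21313217 to 21313898, mean 9.73), at Ccnd1 22652 bp away near Fgf15 (144906843 to 144907716, mean 10.4) and at Ccnd3 31256 bp away near AI661453 (47473399 to 47474192, mean 9.41). Only the Cdkn2a and Cdkn2b pair had its strongest region at a member start. A region 50 kb or less from a gene need not act on it, and which gene each region serves was not tested.

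**Figure D3:**
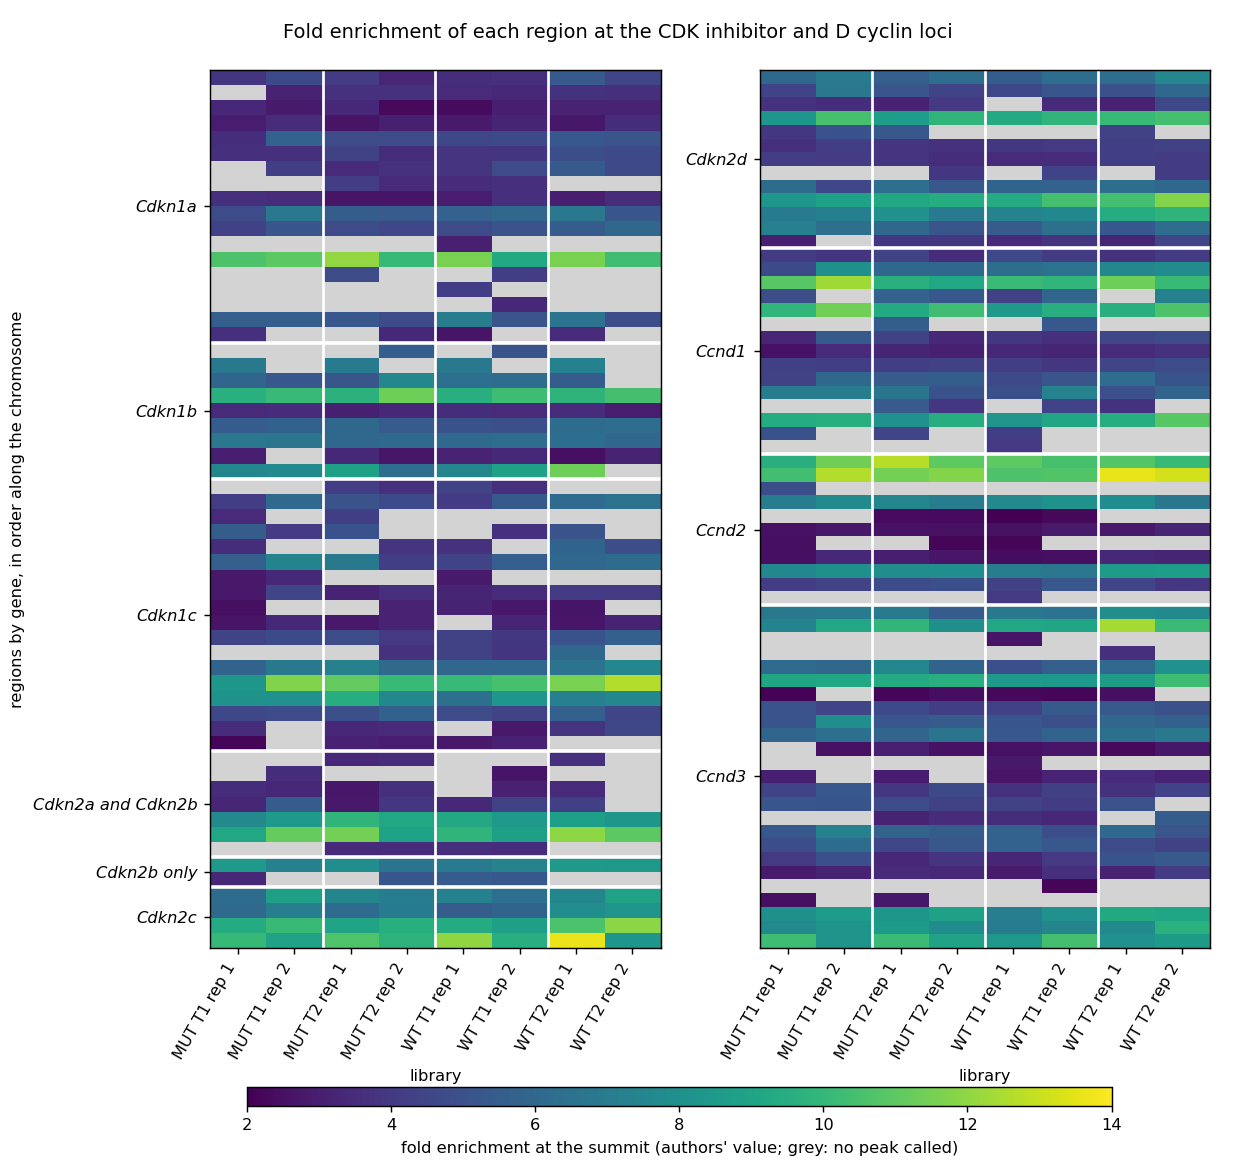
Fold enrichment (colour, authors' value; grey where no peak was called) of the 122 regions, 1 row per region in order along the chromosome and grouped by gene, in the 8 libraries as columns (MUT T1, MUT T2, WT T1, WT T2, replicates 1 and 2). Rows without grey are the 70 regions called in all 8 libraries, and the columns with the most grey are MUT T1 replicate 2 and WT T2 replicate 2, with 84 and 83 regions called.

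The first comparison of groups asks whether a genotype or a population had more of these regions called. MUT T1 libraries had 97 and 84 of the 122 regions, MUT T2 102 and 101, WT T1 103 and 104, and WT T2 95 and 83. The lowest counts stood in the 2 shallowest libraries, one from each genotype. MUT libraries averaged 96 ± 8.29 regions and WT libraries 96.25 ± 9.71 (SD, n = 4 each). The difference was −0.25, with an exact two-sided permutation p of 1. T1 libraries averaged 97 ± 9.20 and T2 libraries 95.25 ± 8.73 (SD, n = 4 each), a difference of 1.75 with an exact permutation p of 0.686 (Benjamini-Hochberg adjusted p = 1 over the 2 tests; the smallest p that 70 arrangements allow is 0.0286). Neither difference exceeded the spread between libraries. The shares followed those of all regions: the 8 libraries called 68.0 to 85.2% of the member regions and 67.0 to 81.2% of all regions.

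**Figure D4:**
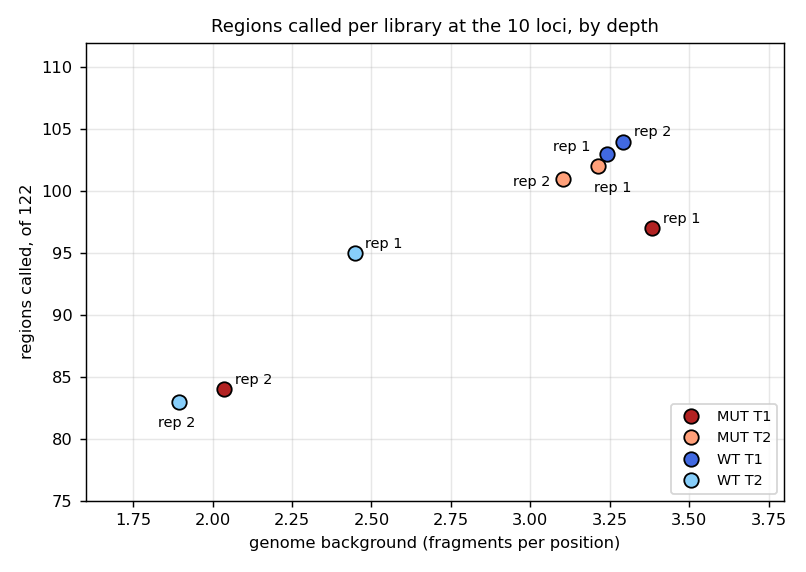
Number of the 122 regions called in each library (y axis, which starts at 75) against the genome background in fragments per position (x axis), coloured by group with the replicate number beside each point. MUT T1 replicate 2, at 2.03 fragments per position, called 84 regions, WT T2 replicate 2, at 1.89, called 83, and MUT T1 replicate 1 called 97 at the highest background of 3.38.

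A region was counted as gained when both libraries of the first group and neither of the second had a peak in it, and as lost in the reverse case. This has no test per region with 2 libraries against 2, so each count stands beside the share of all 90736 regions. For MUT T1 against WT T1, 1 member region was gained (0.820%; background 1.26%) and 6 were lost (4.92%; background 2.13%). For MUT T2 against WT T2, 5 were gained (4.10%; background 3.95%) and 0 lost (background 0.457%), so the share of gains was near the background. For MUT T1 against MUT T2, 1 was gained (0.820%; background 0.641%) and 7 lost (5.74%; background 1.74%). For WT T1 against WT T2, 6 were gained (4.92%; background 3.9%) and 0 lost (background 0.632%). Across all MUT against all WT libraries, no member region was gained (background 0.222%) and none lost (background 0.0606%). No region at these genes thus separated the genotypes in both populations, and both counts of 0 were near the low background. With every list held to an equal number of peaks, the gain of MUT T1 over WT T1 and that over MUT T2 (the second region inside Cdkn1c) were no longer called. Of the losses of MUT T1, 3 of 6 against WT T1 and 2 of 7 against MUT T2 kept their call, as did 2 of the 5 gains of MUT T2 over WT T2 and 3 of the 6 gains of WT T1 over WT T2. Comparisons of the same group share its libraries, so MUT T1 enters 2 of these losses.

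Of the 6 and 7 regions lost in MUT T1, 5 were the same regions in both comparisons. Of these, 4 were called in both MUT T2 and both WT T1 libraries and in no MUT T1 or WT T2 library. The Cdkn1a region, between genes 14598 bp from the span (chromosome 17, 29076233 to 29076530), had 4.20 and 3.47 in the MUT T2 pair and 3.54 and 3.62 in the WT T1 pair. The Cdkn2b region, 2532 bp from that gene and 18945 bp from Cdkn2a (chromosome 4, 89313429 to 89313698), had 3.44 and 3.51 in the MUT T2 pair and 3.69 and 3.54 in the WT T1 pair. Both are narrow regions of modest height, of 298 and 270 bp. The Ccnd2 region, inside the gene (chromosome 6, 127149418 to 127149812), had 2.34 and 2.33 in the MUT T2 pair and 2.04 and 2.24 in the WT T1 pair. The Cdkn1c region, inside Kcnq1 and 49840 bp from Cdkn1c (chromosome 7, 143407838 to 143409160), had 4.19 and 3.66 in the MUT T2 pair and 4.47 and 3.64 in the WT T1 pair. It lies at the very edge of the 50 kb window. In these 4 regions the change between MUT and WT ran one way in T1 and the opposite way in T2.

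This pattern made up 4 of the 122 member regions (3.28%; background 0.176%), and the reverse pattern, called in MUT T1 and WT T2 alone, 0 (background 0.011%). Among regions called in exactly 4 libraries it was 4 of 10 at the members and 3.78% of 4228 over the genome. The pattern was singled out after its values were seen. The 3 shallowest libraries, MUT T1 replicate 2 and the WT T2 pair, lack these peaks. So does MUT T1 replicate 1, the deepest library. Over all regions called in all 8 libraries, that library had the lowest median fold enrichment (7.11) and the lowest median summit coverage (18.0). Whether this plays a part was not tested. With every list held to an equal number of peaks, 1 of the 4 kept the pattern, that of Cdkn1a, and the genome had 56 such regions and 51 of the reverse. After thinning to equal depth 3 of the 4 kept it, and the genome had 127 such regions and 20 of the reverse. The part of depth in it was not tested otherwise.

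The other changed regions were these. At Cdkn1c, a region near Slc22a18 (143469931 to 143470218) was absent from MUT T1 and called in WT T1 at 4.37 and 3.84, in MUT T2 replicate 2 at 3.72 and in WT T2 replicate 1 at 6.04. A region near Phlda2, an imprinted growth regulator gene (143506683 to 143506975), was gained in MUT T2 at 3.11 and 2.90 and in WT T1 at 2.83 and 3.10, in both cases against WT T2, with 2.16 in MUT T1 replicate 1. With the regions inside Kcnq1 and inside Cdkn1c itself, 4 of the 18 regions of this gene changed in at least 1 comparison. Over all members 12 of 122 did (9.84%), at the background of 9.8%, and the highest share of any member was 3 of 9 at Cdkn2b, 2 of them shared with Cdkn2a. At Cdkn2d, a region inside Kri1 (chromosome 9, 21279276 to 21279715) was the one gain of MUT T1 over WT T1, at 3.93 and 5.05 in the MUT T1 pair, with 5.24 in MUT T2 replicate 1 and 4.35 in WT T2 replicate 1.

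At Ccnd3, a region inside the gene (47542891 to 47543699) was lost in MUT T1 against WT T1 and against MUT T2. It had 3.18 and 3.50 in the MUT T2 pair, 3.57 and 3.39 in the WT T1 pair and 5.50 in WT T2 replicate 2. At Ccnd1, a region 24642 bp from the gene (144964190 to 144964756) was lost in MUT T1 against MUT T2, where it had 5.46 and 3.90. It was also called in WT T1 replicate 2 at 4.43 and WT T2 replicate 1 at 3.77, so 1 library of each WT group had it. At Cdkn2a, a region 1795 bp beyond the span (89272385 to 89272971) was lost in MUT T1 against MUT T2, with 3.33 and 3.54 in the MUT T2 pair and 3.64 in WT T2 replicate 1. At Cdkn2b, a region 43026 bp away (89353925 to 89354191) was gained in WT T1 over WT T2, at 5.48 and 5.31 in the WT T1 pair, with 3.34 in MUT T1 replicate 1 and 5.21 in MUT T2 replicate 2. Cdkn1b and Cdkn2c had no changed region in any comparison.

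One region near Cdkn1b followed the replicate number and no group. It lies inside Crebl2 and Gpr19 (chromosome 6, 134876755 to 134877174) and was called in all replicate 1 libraries, at 6.84 in MUT T1, 6.88 in MUT T2, 6.84 in WT T1 and 7.25 in WT T2, and in no replicate 2 library. This was 1 of the 122 regions (background 0.159%), and 0 had the reverse pattern (background 0.0397%).

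The second comparison asks whether the regions called in all 8 libraries differed in fold enrichment. It used limma on log2 values centred on each library's median, over all 49577 such regions, with Benjamini-Hochberg adjustment at 0.05. None of the 70 member regions passed in any of 7 contrasts. Over the genome 0 regions passed in 6 of them, and 6 regions (0.0121%) in all MUT against all WT. At an unadjusted p under 0.05 the members had 0 of 70 in MUT T1 against WT T1 (background 6.34%), 4 in MUT T2 against WT T2 (background 7.65%), 2 in MUT T1 against MUT T2 (background 4.01%) and 5 in WT T1 against WT T2 (background 8.83%). They had 0 in all MUT against all WT (background 6.8%), 4 in all T1 against all T2 (background 5.56%) and 5 in the interaction of genotype and population (background 7.23%). These shares were near or below the background.

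The differences were small. For MUT T1 minus WT T1 the median log2 difference over the 70 regions was 0.068 (0.00037 over all regions), with a range from −0.23 to 0.35, and for MUT T2 minus WT T2 it was −0.021 (−0.011 over all regions), from −0.41 to 0.34. The median standard error of a single region was 0.14 in each. At Cdkn1b, the 4 regions moved by −0.04 to 0.15 in T1 and by at most 0.18 in T2. At Cdkn2c, the 4 regions moved by −0.20 to 0.20 in T1 and by −0.17 to 0.07 in T2. Neither inhibitor had a region past the threshold.

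The lowest unadjusted p among the members (0.00737, limma) belonged to the second start of Ccnd3, whose 8 values are given above. It was higher by 0.28 ± 0.15 (log2, SE) in MUT T1 than in WT T1, while MUT T2 minus WT T2 was −0.41 (SE 0.15). The difference between these differences was 0.69 ± 0.22, with a Benjamini-Hochberg adjusted p of 0.675 in limma. A region 12347 bp from Cdkn1a (29077970 to 29079294) had 3.61 and 3.51 in the MUT T1 pair and 2.65 and 2.68 in the MUT T2 pair, against 2.96 and 3.65 in the WT T1 pair and 3.02 and 3.53 in the WT T2 pair. The 2 MUT pairs did not overlap and the WT pairs did, with a log2 difference between MUT T1 and MUT T2 of 0.43 ± 0.14 (limma adjusted p = 1.00). Neither passed.

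**Figure D5:**
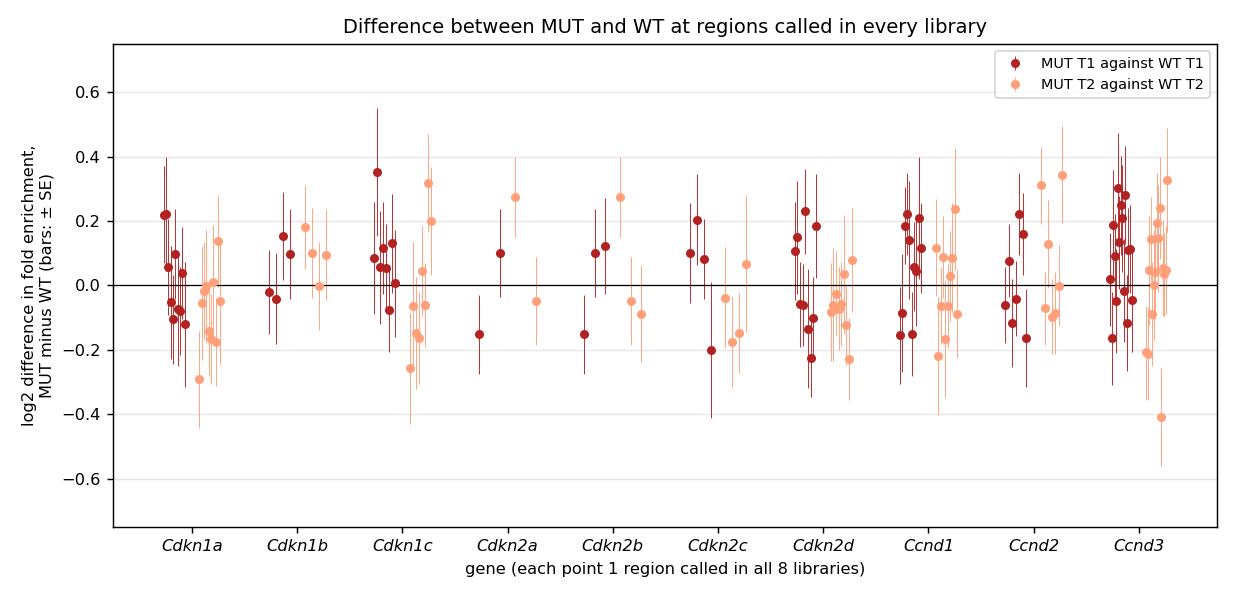
Log2 difference in fold enrichment, MUT minus WT, of each region called in all 8 libraries, by gene, for T1 (dark red) and T2 (light orange), with bars of ± 1 SE from limma; regions shared by Cdkn2a and Cdkn2b appear under both. The points lie between −0.41 and 0.35, on both sides of 0 at most genes, and none passed the threshold.

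The 28 other genes of the pathway on the list, from the kinases Cdk4, Cdk6 and Cdk2 to the retinoblastoma family and the E2F factors, had 299 regions, 195 of them called in all 8 libraries. All 8 libraries had a region within 1 kb of either gene end at 27 of the 28, all but Skp2, which encodes a receptor subunit of the ubiquitin ligase that removes p27. They had 1 gained (0.334%; background 1.26%) and 4 lost regions (1.34%; background 2.13%) in MUT T1 against WT T1, and 7 gained (2.34%; background 3.95%) and 1 lost (0.334%; background 0.457%) in the MUT T2 pair against WT T2. In the MUT T1 pair against MUT T2 there were 0 gained (background 0.641%) and 4 lost (1.34%; background 1.74%), and in the WT T1 pair against WT T2 6 gained (2.01%; background 3.9%) and 1 lost (0.334%; background 0.632%). All these shares were below the background. All MUT against all WT had 1 gained (0.334%; background 0.222%) and 0 lost (background 0.0606%), a single region and so near the background. None of the 195 passed in limma in any contrast. The region gained in all MUT libraries lies at E2f3, an activating E2F gene (chromosome 13, 29970298 to 29970711), with 5.38 and 4.71 in the MUT T1 pair and 3.94 and 6.38 in the MUT T2 pair. A region of Rbl2, which encodes the retinoblastoma relative p130 of resting cells (chromosome 8, 91117696 to 91118391), had the pattern of the 4 member regions, with 3.56 and 5.74 in the MUT T2 pair and 5.89 and 5.59 in the WT T1 pair. This was 1 of the 299 regions (0.334%; background 0.176%), a single region and so near the background.

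The profile of each member's strongest region over the 8 libraries was set beside those of 18402 protein-coding genes, by Pearson r of centred log2 fold enrichment. The most similar genes were Ogdh, Ppia and Zmiz2, which share a region, for Cdkn1c (r = 0.985), Lrtm2 for Ccnd3 (r = 0.977), Ptpn3 for Ccnd2 (r = 0.971) and Mtx2 for Ccnd1 (r = 0.959). For Cdkn1b it was Cfap36, at the lowest value (r = 0.944). The values of the members not named here ran from 0.956 at Cdkn1a to 0.971 at Cdkn2a and Cdkn2b, which share their strongest region. Except at that pair, the region used lay outside the member genes, so the likeness is that of a region near the member. With 8 libraries of unequal depth and so many genes to choose from, such values describe likeness and have no p.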

How the data were processed

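ATAC-seq, in which a transposase tags open DNA, was analysed from 1 peak list per library (8 libraries). Bowtie2, SAMtools, MACS2 and mm10 are named per the submitters' processing notes, with no versions. Each deposited list gives, as the authors' values, a score, a fold enrichment (a ratio), −log10 p-values and −log10 q-values (all at least 3.00) and a summit offset, used here as one number per peak. Per the labels' protocols, 5000 nuclei were incubated for 30 min at 37 °C. A shift of cut sites is not stated.

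The members, gene lists and tests were chosen with earlier results of these data known, and the marker, pathway and named-gene rules follow from that. Named regions were those at member starts, the strongest of each locus, and all gained, lost or past the threshold. Others named were chosen after their values were seen.

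Peaks of chromosomes 1 to 19 and of X that shared at least 1 bp were merged, and a region took the highest fold enrichment of its peaks in a library. Pileup and local background were recovered from the fold and −log10 p-value, assuming MACS2's added 1, and returned the deposited p within 0.001 for at least 99.9986% of peaks. Read totals were not used here. Counts of regions were compared with exact permutation tests. The fit used limma 3.58.1 in R 4.3.3 (4 group means, trend, Benjamini-Hochberg) and was tested on simulated data. Python 3.11.15, numpy 2.4.6, pandas 2.3.3, scipy 1.17.1 and matplotlib 3.10.9 did the rest. Gene spans and promoter windows came from RefSeq (GRCm38.p6), with 11 starts for 7 members and span ends for Cdkn1c, Ccnd1 and Ccnd2. Windows were searched on both strands for the GC box (GGGCGG), the CCAAT box (CCAAT), the cyclic AMP response element (TGACGTCA), the E-box (CACGTG), the RUNX motif (TGTGGT), E2F motifs (TTTCCCGC or TTTGGCGC), the TATA box (TATAAA) and the p53 half-site. Alternatives were equal numbers of peaks (62232), thinning to equal depth, a −log10 q-value of at least 5, a summit rule, a 10 kb window, other normalizations, a filter, a replicate block and leaving out each library.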

Additional observations from a re-analysis of the deposited data

Results flagged for a closer look

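At Cdkn1b, 1 library stood apart in each genotype by the number of regions called: MUT T1 replicate 2 had 6 regions where the other MUT libraries had 8, and WT T2 replicate 2 had 5 where the other WT libraries had 8. At Cdkn2d, MUT T1 replicate 2 had 11 regions where the other MUT libraries had 12, and WT T1 replicate 1 had 10 where the other WT libraries had 12. In each case the others were equal, so any deviation is picked out. Such picks can arise by chance among the 59 groups of 4 libraries examined. Their rate was not worked out for counts with equal values. MUT T1 replicate 2 and WT T2 replicate 2 were the 2 shallowest libraries, and WT T1 replicate 1 was not.

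The regions at Cdkn2a and Cdkn2b, at Ccnd2, at Cdkn1c and at Cdkn1a, each called in 4 libraries, had opposite calls in the populations: absent from both MUT T1 libraries and present in both WT T1 libraries, but present in both MUT T2 libraries and absent from both WT T2 libraries. The difference between populations was not tested.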

How the results depend on the processing

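None of the member regions passed the limma threshold in any of 98 refits under the alternatives. The difference in regions called between MUT and WT (−0.25) turned to 1.5 after thinning to equal depth, 3 under the summit rule and 0.25 in a 10 kb window, and ran from −4.67 to 3.75 with 1 library left out. The difference between T1 and T2 (1.75) turned to −1 after thinning and −1.5 under the summit rule, and ran from −2.33 to 6.08 with 1 library left out. No p reached the threshold in any of these.

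With equal numbers of peaks, MUT T1 against WT T1 had 2 gained regions (neither of them the one near Cdkn2d) and 6 lost, of which 3 were the same (those of Cdkn1a, of Cdkn2b and near Slc22a18), MUT T2 against WT T2 2 gained and 3 lost, MUT T1 against MUT T2 2 gained and 3 lost, and WT T1 against WT T2 3 gained and 1 lost. After thinning, MUT T1 against WT T1 had 3 gained regions and WT T1 against WT T2 1 lost. The summit rule gave 2 gained regions in MUT T1 against WT T1. In a 10 kb window, 2 were gained in MUT T2 against WT T2, 4 lost in MUT T1 against MUT T2 and 2 gained in WT T1 against WT T2. With 1 library left out, fewer calls are required and counts grow: gained and lost regions ran from 1 to 5 and 9 to 14 in MUT T1 against WT T1, 7 to 13 and 0 to 1 in MUT T2 against WT T2, 1 to 3 and 9 to 13 in MUT T1 against MUT T2, and 8 to 15 and 0 to 3 in WT T1 against WT T2.

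Over the genome, all MUT against all WT had 6 regions past the threshold, 0 without centring, 3 without the added 1, 0 with the replicate block and 0 to 2 with 1 library left out. On fold enrichment, MUT T1 against WT T1 and MUT T1 against MUT T2 had 0, and 0 to 1 with 1 library left out. On summit coverage, chosen after seeing the data, the counts were 23 (MUT T1 against WT T1), 18 (MUT T2 against WT T2), 29 (WT T1 against WT T2) and 78 (all MUT against all WT), of 49570 regions. Leaving out a library was not run on summit coverage. The cause was not tested.

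Deviations of libraries with the same replicate number had low but positive correlations in every pair of groups (0.016 to 0.076). The highest were between MUT T1 and MUT T2 (0.076) and between WT T1 and WT T2 (0.058). The labels state no pairing and the numbers were not taken as pairs, but whether T1 and T2 were paired is not settled. With the replicate block, the difference in regions called was again −0.25 between MUT and WT (exact permutation p = 1) and 1.75 between T1 and T2 (exact permutation p = 0.611), where 36 arrangements allow no p below 0.0556. A peak list shows presence above a threshold, so a missing call in a shallow library is not shown to be closed chromatin.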

Other observations

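Of the 10 member regions called in a single library (8.20%; background 11.6%), 6 were called in WT T1 replicate 1 and 2 in WT T1 replicate 2. The others were 1 in MUT T1 replicate 1 and 1 in WT T2 replicate 1. How such regions of the whole genome spread over the libraries was not counted, so this split is not shown to be particular to these genes.

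A region 21833 bp from Cdkn1b (134946841 to 134947875) was the strongest at any member to be missing from just 1 library, with 7.50 and 7.69 in the MUT T1 pair, 8.85 and 6.31 in the MUT T2 pair, 7.44 and 8.87 in the WT T1 pair, and 11.3 in WT T2 replicate 1. It had no peak in WT T2 replicate 2.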
